A study of Mus musculus with 6 samples.

Results

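The Zfp genes are mouse genes named for a zinc finger protein and a number. The 257 genes described here were selected on their level in the deposited RNA-seq table: the name is Zfp followed by digits alone, Zfp42 and Zfp352 are left out, and the higher of its values in ESCs and NCs is at least 2 FPKM. FPKM counts sequenced fragments scaled by transcript length and by the number of mapped fragments, so levels of different genes can be set side by side. The table holds 22969 distinct gene names, 328 of which are such Zfp names, and the other 71 Zfp names lie below the limit in both conditions. Just inside the limit were Zfp94 at 2.03, Zfp758 at 2.06 and Zfp418 at 2.09 FPKM in their higher condition, and just outside it were Zfp28 at 2.00 (1.998 before rounding), Zfp398 at 1.94 and Zfp947 at 1.93 FPKM.

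The cells were mouse embryonic stem cells (ESCs) of the single line E14Tg2a at passages 37 to 40. ESCs were kept with leukemia inhibitory factor (LIF) at 1 unit per ml, and neuronal cells (NCs) were the same line grown without LIF in 1 μM retinoic acid (RA) for 48 h. RNA of 3 samples per condition was sequenced, but the table gives 1 FPKM value per gene and condition, made by the authors from the 3 samples. No spread between samples could therefore be set beside a difference, no test was run, the depth of each sample is unknown, and every statement on the Zfp genes is a description of these pooled values. A gene is counted as higher or lower where its values differ at least 2-fold.

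The markers of the cell types moved with the labels for ESCs, while those of neurons did not. All 8 pluripotency markers were lower in NCs (their summed level was 5950 FPKM in ESCs and 930.0 in NCs), and all 5 RA response genes were higher (7.36 and 710.4 FPKM). The 4 neural progenitor markers summed to 18.3 FPKM in ESCs and 107.2 in NCs. Of 6 neuron markers, 2 were higher in NCs (Dcx and Th, at 0.334 and 0.250 FPKM) and their sum was 46.7 FPKM in ESCs and 12.7 in NCs, so that neuron markers were lower in sum in the cells labelled NC. The 4 endoderm markers summed to 7.15 FPKM in ESCs and 18.4 in NCs and the 4 feeder markers to 19.4 and 41.8 FPKM (the 3 collagens were higher in NCs, while Thy1 was lower, at 9.64 and 1.799 FPKM), whereas the 3 mesoderm markers stayed below 1 FPKM each. In whole cultures, fewer cells of a type and less RNA per cell cannot be told apart, and the part of these other cell types in the Zfp values was not tested.

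A C2H2 zinc finger is a short fold in which a pair of cysteines and a pair of histidines hold a zinc ion, and rows of such fingers read DNA sequence. In mammals the largest class also carries a KRAB domain at its front end, which recruits the corepressor Trim28 (KAP1) and, through it, the histone methyltransferase Setdb1 and heterochromatin proteins; many of these proteins silence retroelements, and a few guard imprinted genes. The Zfp name is broader than this class, since it also covers proteins with other kinds of zinc binding fold, such as the CCCH finger of Zfp36. A KRAB domain was found in 137 of the 256 members with a translated protein, and in the other 119 none was found. The remaining member, Zfp862, is annotated as a pseudogene.

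As a group, the Zfp genes were higher in NCs. Of the 257 members, 167 (65.0%) had the higher value in NCs, against 47.2% of all 12011 gene names with 2 FPKM in the higher condition, and the median log2 ratio of NCs to ESCs was 0.24 for the members and -0.04 for all names. At least 2-fold higher in NCs were 37 members (14.4%), where the share of all names was 10.8%. These sets differ in level: 37 of the 257 members but 5047 of the 12011 names reached 20 FPKM. The share of all names 2-fold higher was 22.7% at 2 to 3 FPKM and 5.75% at 20 FPKM or more. The 10.8% is therefore not a share for the levels of the members, and a share matched in level was not computed. The part of level in the difference between 14.4% and 10.8% was not tested. At least 2-fold lower were 13 members (5.06%), where the share of all names was 9.78%. The other 207 lay within 2-fold, and 73 of these within 1.2-fold. Many of the ratios near 2-fold rest on a low value in ESCs. Once 1 FPKM was added to both values, 18 members (7.004%) were 2-fold higher against 8.27% of all names. On that scale the share of 2-fold higher members was thus not above that of all names, while that of the lower members (3.89% against 7.74%) stayed below. The columns do not sum to the same total (770592 FPKM in ESCs, 628679 in NCs). Rescaling both to one total (TPM) adds 0.29 to each log2 ratio, for the members as for all names, and turns the direction of 34 members. Directions below are those of the deposited FPKM, and any gene less than 1.2-fold lower in NCs is higher there in TPM.

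**Figure D1:**
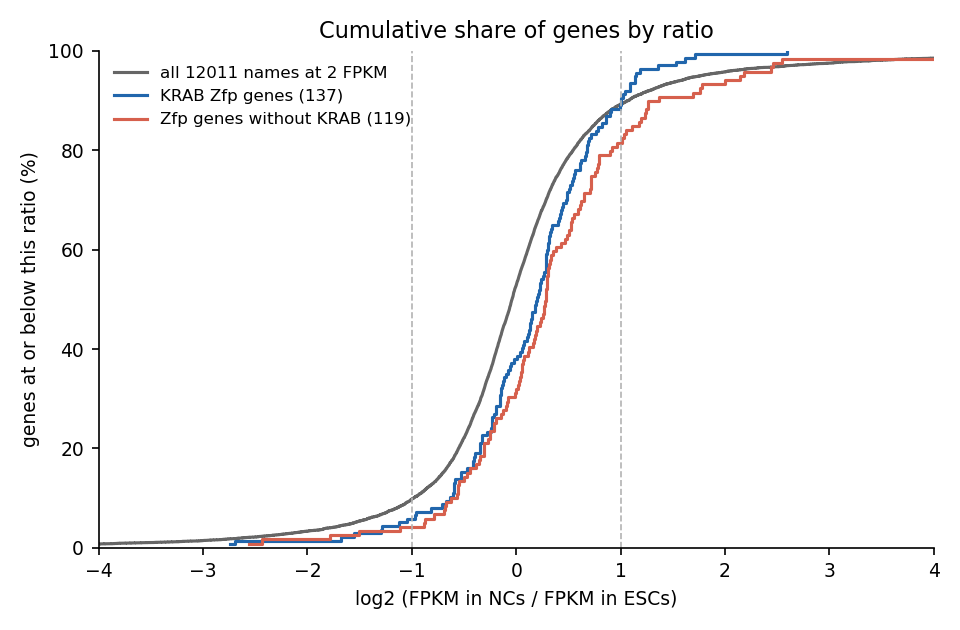
Cumulative share of genes (%) against the log2 ratio of the NC to the ESC value, for 137 KRAB Zfp genes, 119 Zfp genes without a KRAB domain and all 12011 gene names at 2 FPKM; dashed lines mark 2-fold and the axis stops at 4. Both Zfp curves run to the right of the curve of all names around a ratio of 0 and reach the 2-fold lower line at smaller shares.

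The median of the members was above that of all names in each of 5 level classes, but the counts past 2-fold changed with level. Among members whose higher value was 10 to 20 FPKM, 16.4% were 2-fold higher in NCs and 3.64% lower, against 9.36% and 7.78% of all names of that level. Among the 31 members at 2 to 3 FPKM, the share 2-fold higher (16.1%) was below that of all names (22.7%), and so was the share 2-fold lower (3.23% against 16.1%). At 3 to 5 FPKM 13.8% of members and 21.1% of all names were 2-fold higher. These shares were 15.8% and 13.1% at 5 to 10 FPKM, and 8.11% and 5.75% at 20 FPKM or more. The 37 members at 20 FPKM or more had a median log2 ratio of -0.10 (0.19 in TPM), beside -0.16 for all names of that level, and 3 of them were 2-fold higher and 3 were 2-fold lower. Members of low level therefore had few large ratios in either direction for their level, and the median of the highest members was the lowest of the 5 level classes.

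**Figure D2:**
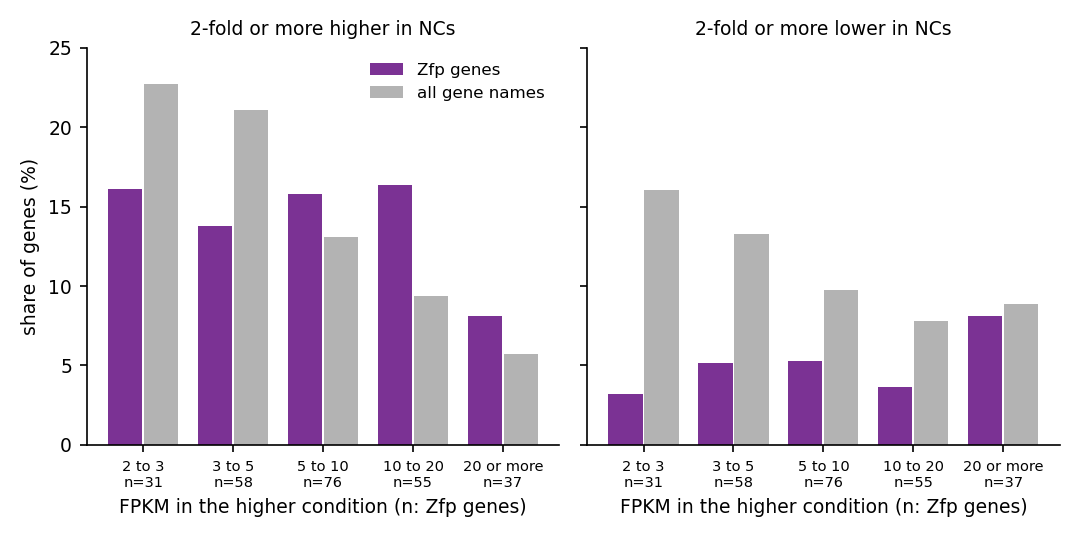
Share of genes (%) at least 2-fold higher (left) and at least 2-fold lower (right) in NCs, for the Zfp genes and for all gene names, by FPKM in the higher condition; n is the number of Zfp genes. The Zfp bars on the right are below those of all names at each level, from 3.23% against 16.1% at 2 to 3 FPKM to 8.11% against 8.86% at 20 FPKM or more.

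Levels of the family were low in both conditions. The median member was at 5.22 FPKM in ESCs and 6.52 in NCs, and the summed FPKM of the members was 2459 in ESCs and 2577 in NCs. At least 2 FPKM in both conditions was reached by 216 members, in NCs alone by 32 and in ESCs alone by 9. Only 6 members reached 50 FPKM in either condition. The highest in both was Zfp207 (BuGZ), a protein of the mitotic spindle and kinetochore, at 116 FPKM in ESCs and 140 in NCs (116.4 and 139.7 before rounding). Zfp106, an RNA binding protein, was at 86.7 and 54.3 FPKM, and Zfp330 at 85.6 and 46.3 FPKM. Zfp57 (66.0 FPKM) and Zfp706 (51.8 FPKM) completed the 5 highest in ESCs, and Zfp664 (50.8 FPKM), Zfp703 (49.6 FPKM) and Zfp706 (49.1 FPKM) the 5 highest in NCs. Zfp703 is the one gene among these that was below 1 FPKM in the other condition. Nearest to equal values were Zfp553 (23.7 FPKM in both), Zfp954 (6.12 and 6.16 FPKM) and Zfp35 (8.40 and 8.32 FPKM).

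**Figure D3:**
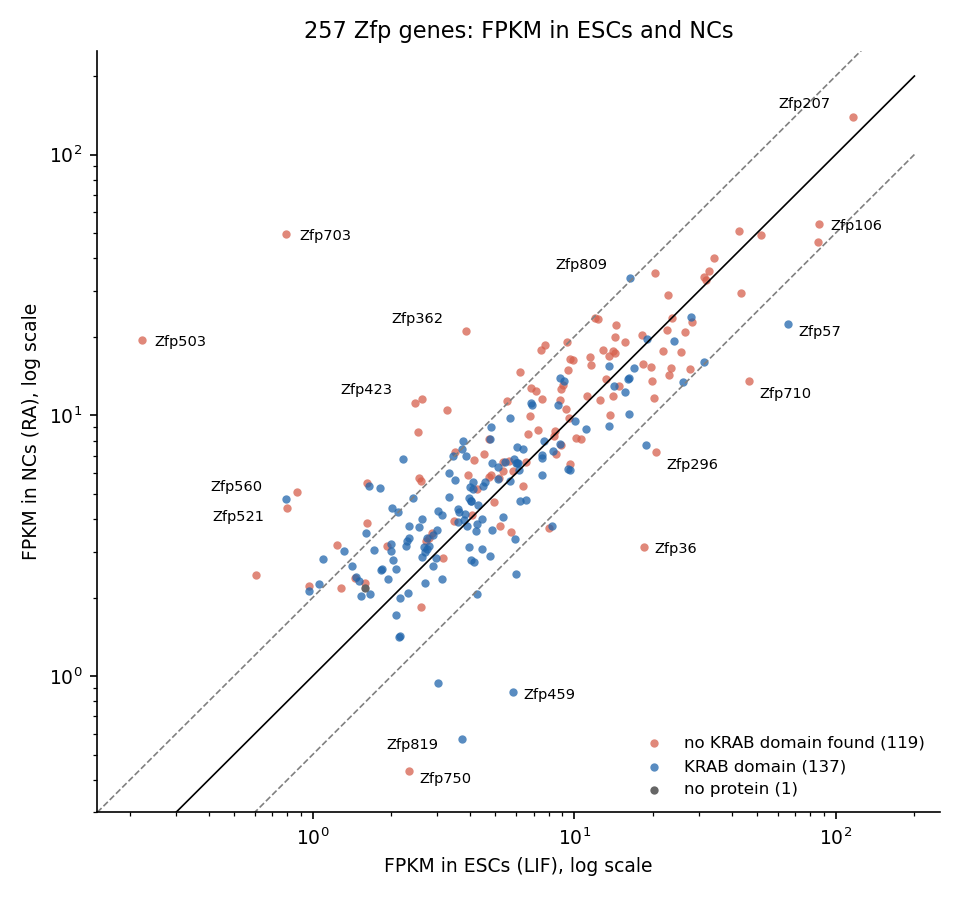
NC value against ESC value, in FPKM, for the 257 Zfp genes, both on log axes; 1 point is 1 gene, coloured by whether a KRAB domain was found, the solid line marks equal values and the dashed lines 2-fold. Zfp503 and Zfp703 stand far above the other genes, and Zfp459, Zfp819 and Zfp750 lie lowest.

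The largest differences belonged to a pair of related genes. Zfp503 (Nlz2; chr14:21983959-21989601, minus strand, build mm10) was at 0.223 FPKM in ESCs and 19.5 in NCs, 87.4-fold higher. Zfp703 (Nlz1; chr8:26977325-26981461, plus strand) was at 0.794 and 49.6 FPKM, 62.4-fold higher. Both encode corepressors of the NET family, known for roles in hindbrain and eye development, which hold a single atypical zinc finger: the C2H2 pattern searched here was found 0 times in either. Their translated proteins, of 652 and 594 residues, shared 61.6% of 575 aligned residues. The ESC values of both genes are below 1 FPKM, so their ratios rest on low denominators, and on the log2(FPKM + 1) scale the differences were 4.06 and 4.82, with Zfp703 the larger.

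A second related pair, Zfp423 and Zfp521, also lay among the 10 largest rises. Both are long proteins with 27 complete fingers here, and both bind early B cell factors and have known roles in neural development. Zfp423 was at 2.47 FPKM in ESCs and 11.2 in NCs (4.53-fold), and Zfp521 at 0.799 and 4.397 FPKM (5.50-fold). They shared 66.9% of 1254 aligned residues. The pairs were set out after their values were seen. In other related sets the members differed less evenly: Zfp608 was at 3.25 and 10.5 FPKM (3.23-fold higher) and the related Zfp609 at 13.6 and 16.8 FPKM (1.24-fold higher), while among Zfp532, Zfp592 and Zfp687, which occur together in one chromatin complex, Zfp532 was 1.30-fold lower and the other two were 1.57-fold and 1.53-fold higher.

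Of the other genes among the 10 largest rises, Zfp560 was the only one with a KRAB domain. It was at 0.788 FPKM in ESCs and 4.76 in NCs (6.04-fold). Zfp362 was at 3.86 and 20.98 FPKM (5.44-fold), and Zfp768 at 2.61 and 11.5 FPKM (4.43-fold). Zfp618 was at 0.870 and 5.10 FPKM (5.85-fold), and Zfp319 at 2.52 and 8.65 FPKM (3.44-fold). Counted over all members, 9 were past 4-fold higher and 4 past 4-fold lower. The share of all names past 4-fold was not counted, so these counts are not read as many or few. At the lower edge of the 2-fold count stood Zfp113, at 2.13 and 4.25 FPKM (log2 ratio 1.00), with Zfp811 just outside it (log2 ratio 0.99).

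The 10 largest falls were led, by ratio, by a pair of KRAB genes of low level. Zfp459 (chr13:67405709-67421418, minus strand) was at 5.81 FPKM in ESCs and 0.866 in NCs, 6.71-fold lower. Zfp819 (chr7:43607169-43618285, plus strand), known from pluripotent cells as a repressor of retroelements, was at 3.71 and 0.575 FPKM, 6.46-fold lower. Zfp719, whose start lies 27.6 kb from that of Zfp819, differed the other way, at 1.09 FPKM in ESCs and 2.81 in NCs.

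Zfp36 (tristetraprolin), which binds AU-rich elements and speeds the decay of mRNAs, was at 18.4 FPKM in ESCs and 3.12 in NCs, 5.91-fold lower. Zfp750, known as a regulator of epidermal differentiation, was at 2.34 and 0.433 FPKM, so that its ratio too rests on a value below 1 FPKM. The falls of genes with a higher level were those of Zfp710 (46.7 and 13.6 FPKM, 3.44-fold), Zfp57 (66.0 and 22.4 FPKM, 2.94-fold) and Zfp296 (20.5 and 7.24 FPKM, 2.84-fold). These 3 kept at least 7.24 FPKM in NCs.

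The remaining 3 of the 10 largest falls, Zfp600, Zfp534 and Zfp59, share much of their sequence with other genes and their values are uncertain. Zfp600 was at 3.02 FPKM in ESCs and 0.941 in NCs, Zfp534 at 18.9 and 7.71 FPKM, and Zfp59 at 5.99 and 2.46 FPKM. Of the 50-base words of their transcripts, 81.2%, 68.4% and 52.4% also occur in another gene, and reads from such stretches can be assigned to either. Over the family 30 members share more than 10% of their words, and among the 37 members 2-fold higher Zfp697 alone did (10.5%). The 30 include Zfp935 (100%), Zfp524 (45%), Zfp963 (39.4%), Zfp932 (37.0%) and Zfp865 (14.3%), named below, whose values are uncertain too.

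Promoters are shown for 2 genes of each direction, as examples of promoters rich and poor in CG dinucleotides among these genes. Each line runs from 250 bases before to 50 bases from the start site, 5′ to 3′ on the strand of the gene, taken from RefSeq on build GRCm38.p6, the same sequence as mm10, and capitals mark CG. The genes were chosen after their values and their CG numbers were seen, so the contrast between the 4 is set by that choice: Zfp503 and Zfp618 are among the rises, Zfp57 and Zfp710 among the falls, and other falls such as Zfp819 (20 CG), Zfp473 (23 CG) and Zfp667 (25 CG) have as many as Zfp503 or more.
Zfp503 (chr14:21989552-21989851, minus strand): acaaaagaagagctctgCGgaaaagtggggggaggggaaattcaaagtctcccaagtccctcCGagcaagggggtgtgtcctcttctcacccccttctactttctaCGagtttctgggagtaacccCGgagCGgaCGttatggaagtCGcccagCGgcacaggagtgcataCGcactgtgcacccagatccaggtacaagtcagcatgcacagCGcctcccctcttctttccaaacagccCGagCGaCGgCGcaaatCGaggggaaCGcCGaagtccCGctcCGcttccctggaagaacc
Zfp618 (chr4:62965317-62965616, plus strand): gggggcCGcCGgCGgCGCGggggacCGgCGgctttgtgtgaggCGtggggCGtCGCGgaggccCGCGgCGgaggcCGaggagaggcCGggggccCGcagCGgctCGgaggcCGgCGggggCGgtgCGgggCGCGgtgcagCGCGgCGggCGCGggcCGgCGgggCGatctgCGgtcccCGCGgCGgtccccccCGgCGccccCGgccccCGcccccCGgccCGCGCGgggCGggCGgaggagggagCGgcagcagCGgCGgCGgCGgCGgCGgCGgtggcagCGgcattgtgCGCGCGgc
Zfp57 (chr17:37000913-37001212, plus strand): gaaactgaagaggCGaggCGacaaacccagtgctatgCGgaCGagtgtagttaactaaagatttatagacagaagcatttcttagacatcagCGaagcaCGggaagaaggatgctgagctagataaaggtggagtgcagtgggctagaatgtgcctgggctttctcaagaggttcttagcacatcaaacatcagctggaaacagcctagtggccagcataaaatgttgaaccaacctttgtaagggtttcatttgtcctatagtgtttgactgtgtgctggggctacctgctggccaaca
Zfp710 (chr7:80024564-80024863, plus strand): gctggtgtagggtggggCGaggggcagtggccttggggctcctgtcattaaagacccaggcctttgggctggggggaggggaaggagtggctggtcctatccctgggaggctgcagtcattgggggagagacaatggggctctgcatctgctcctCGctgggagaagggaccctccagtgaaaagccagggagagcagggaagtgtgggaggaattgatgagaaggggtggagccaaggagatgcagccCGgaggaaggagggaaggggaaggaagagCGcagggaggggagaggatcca

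CG occurs 19 times in the promoter of Zfp503 and 59 times in that of Zfp618, but 6 times in that of Zfp57 and 4 times in that of Zfp710. A promoter was matched by symbol for 208 of the 257 members. The median number of CG was 19.5 for the 30 matched members 2-fold higher in NCs, 15 for the 166 within 2-fold, 14 for the 12 that were 2-fold lower and 11 for the 20595 promoters of all matched genes. At most 10 CG were counted in 3 (10.0%) of those 30 promoters, in 56 (33.7%) of those 166 and in 6 of those 12, beside 49.6% of the promoters of all matched genes. The promoters of all matched genes were taken without the 2 FPKM limit, so they are not a like set for the members. The direction was not strict, since the promoter of Zfp46, 2-fold higher, has 3 CG, and that of Zfp36, 5.91-fold lower, has 21. Across the 208 genes the Spearman correlation of CG number and log2 ratio was 0.17, given as a description over genes that are read from the same libraries and are not replicates. The word AGGTCA, the core element to which RA receptors bind, was searched on both strands. It was present in 17 (8.17%) of the 208 member promoters and in 14.96% of all matched promoters, again without the 2 FPKM limit. Among the members it was in 1 of the 30 promoters of those 2-fold higher and in 1 of the 12 of those lower.

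The KRAB genes, which number 137, had a median log2 ratio of 0.20, and 85 of them were higher in NCs. At least 2-fold higher were 15 (10.9%), beside 10.8% of all names, and at least 2-fold lower were 8 (5.84%), beside 9.78% of all names. Of the 119 genes without KRAB, 22 (18.5%) were 2-fold higher and 5 (4.202%) were 2-fold lower, with a median of 0.28. Over all levels together, the share of KRAB genes past 2-fold higher was close to that of all names, but all names are not a like set in level. The genes without KRAB had the larger share. Of the KRAB genes, 23, 47 and 44 reached 2 to 3, 3 to 5 and 5 to 10 FPKM in the higher condition. At these levels 22.7%, 21.1% and 13.1% of all names were 2-fold higher, each above the 10.9% of the KRAB genes. Another 17 lay at 10 to 20 FPKM and 6 at 20 FPKM or more (9.36% and 5.75% of all names). A share of all names matched in level was not computed, so the closeness of 10.9% to 10.8% is not read as a result about KRAB genes. Genes with and without KRAB differ in level too, with a median higher value of 4.84 FPKM for KRAB genes and 11.8 FPKM for the others. They also differ in the number of fingers (medians of 12 and 7), and the part of level and fingers in the counts was not tested. With 1 FPKM added, 4 KRAB genes remained 2-fold higher. Behind the first of the KRAB genes, Zfp560, came Zfp282 (1.64 and 5.35 FPKM) and Zfp386 (2.21 and 6.78 FPKM), and Zfp809 was the KRAB gene past 2-fold with the highest value in NCs.

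The number of C2H2 fingers told little of the ratio. Zfp142 had the most, 36, and was at 4.26 FPKM in ESCs and 5.21 in NCs. In 10 members no complete finger was found, and these held the highest ratios, those of Zfp503 and Zfp703, as well as Zfp36, Zfp750 and Zfp365, which were 2-fold lower. The lowest ratios were those of Zfp459, with 3 fingers, and Zfp819, with 9. The rest of these 10 were Zfp935 (3.50 and 5.63 FPKM), Zfp185 (5.85 and 6.14 FPKM), Zfp839 (6.35 and 5.34 FPKM), Zfp259 (25.6 and 17.5 FPKM) and Zfp330, given above. For Zfp935 the count rests on a protein of 150 residues, and all its transcript words are shared. Across the members the Spearman correlation of finger number and log2 ratio was 0.05. Of the 48 members with 5 to 8 fingers 11 (22.9%) were 2-fold higher and 1 (2.08%) was 2-fold lower, beside 10.8% and 9.78% of all names. This class had the largest share of 2-fold higher members of the 6 finger classes, and 19 of the 48 were KRAB genes. The part of KRAB and level in this share was not tested.

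Among the KRAB genes known to silence imprints and retroelements, 6 of the 7 listed names were members, 1 of them 2-fold higher and 2 of them 2-fold lower in NCs. The shares are 16.7% and 33.3%, beside 10.8% and 9.78% of all names, from a list chosen with earlier results of these data known. Zfp57, which keeps DNA methylation at imprinting control regions, and Zfp819 were the lower ones. Zfp809, which silences murine leukemia proviruses through their primer binding site, was at 16.4 FPKM in ESCs and 33.7 in NCs, 2.06-fold higher, and fell below 2-fold once 1 FPKM was added. Zfp445, a partner of Zfp57 at imprints, was at 19.0 and 19.6 FPKM. Zfp568, a repressor of a placental transcript of Igf2, was at 28.1 and 23.8 FPKM, and Zfp932 at 16.3 and 13.9 FPKM. The direction was thus mixed, and the imprint regulators Zfp57 and Zfp445 differed from each other: their levels were 66.0 and 19.0 FPKM in ESCs but 22.4 and 19.6 in NCs.

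The list of genes known in ESC self-renewal and its exit, chosen with earlier results of these data known, had 8 members, 6 of them lower in NCs. Their median log2 ratio was -0.23 (3 lower and 0.06 in TPM, which turns the direction of the median). Zfp296 alone was past 2-fold, so that 12.5% were 2-fold lower and 0% higher, beside 9.78% and 10.8% of all names. Higher in NCs were thus 2 of the 8, beside 37.3% of all names at 20 FPKM or more, whose median log2 ratio was -0.16, so that the median of the list is near that of all names at this level. Zfp217 and Zfp462 lie below it, at 10 to 20 FPKM, where 52.1% of all names were higher. Zfp143, a factor of many promoters that also activates Nanog, was at 20.1 and 11.6 FPKM, 1.73-fold lower. Zfp281, which binds with Nanog and Oct4, was at 23.5 and 15.2 FPKM, 1.55-fold lower. Zfp462 (14.1 and 11.8 FPKM), Zfp217 (18.3 and 15.7 FPKM) and Zfp706 were less than 1.2-fold lower, and Zfp219 (34.2 and 40.1 FPKM) and Zfp207 were higher in NCs.

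The neural development list held the widest range. Of its 9 names, 7 were members and 4 of these, Zfp503, Zfp703, Zfp521 and Zfp423, were 2-fold higher, while Zfp365 (7.99 and 3.69 FPKM) was 2.17-fold lower. The shares of the list are 57.1% and 14.3%, beside 10.8% and 9.78% of all names, but the list was chosen with earlier results of these data known and is no independent evidence of a direction. Zfp292 (13.7 and 10.1 FPKM) and Zfp335 (8.53 and 7.08 FPKM), a factor needed in neural progenitors, were lower by less than 2-fold, though Zfp335 is higher in NCs in TPM. Zfp536 stayed outside the members, at 0.172 FPKM in ESCs and 0.638 in NCs.

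Of 12 listed genes that act on RNA, ribosomes and protein turnover, 9 were members, of which 3 (33.3%) were higher in NCs, beside 47.2% of all names. The list was chosen with earlier results of these data known. The list spans 2 level classes, where 52.1% (10 to 20 FPKM) and 37.3% (20 FPKM or more) of all names were higher. The other 6 of the 9 genes were lower (5 in TPM), and of these Zfp36 alone was past 2-fold. That is 11.1% 2-fold lower, near the 9.78% of all names, and 0% 2-fold higher, beside 10.8% of all names. Zfp598, the ubiquitin ligase that senses collided ribosomes, was at 43.6 FPKM in ESCs and 29.3 in NCs. Zfp622, a factor of the large ribosomal subunit, was at 28.3 and 22.8 FPKM. Zfp593 (10.1 and 8.19 FPKM) and Zfp346 (14.8 and 12.96 FPKM), which binds double-stranded RNA, were lower by less than 1.3-fold, and TPM turns the direction of Zfp346. Zfp326, a factor of transcript elongation and splicing, was higher, at 9.49 and 14.9 FPKM, and Zfp830 was at 11.2 and 11.8 FPKM.

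Of 9 members listed as chromatin and transcription partners, 7 were higher in NCs and the median log2 ratio was 0.62, but none was past 2-fold. Beside these, 47.2% of all names were higher in NCs (52.1% at 10 to 20 FPKM), and 10.8% and 9.78% were 2-fold higher and lower. This list too was chosen with earlier results of these data known. The highest ratio was that of Zfp516, at 12.4 FPKM in ESCs and 23.4 in NCs (1.89-fold). Zfp644, a partner of the G9a and GLP methyltransferases, was at 9.67 and 16.5 FPKM, and Zfp410, known to act on the Chd4 gene, at 9.85 and 16.2 FPKM. Zfp148 (5.33 and 6.62 FPKM) and Zfp384 (14.3 and 17.4 FPKM) were higher by less than 1.3-fold, and Zfp110 (16.9 and 15.2 FPKM) was lower, a direction that TPM turns. Zfp827 was below the limit, at 0.983 and 1.31 FPKM.

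**Figure D4:**
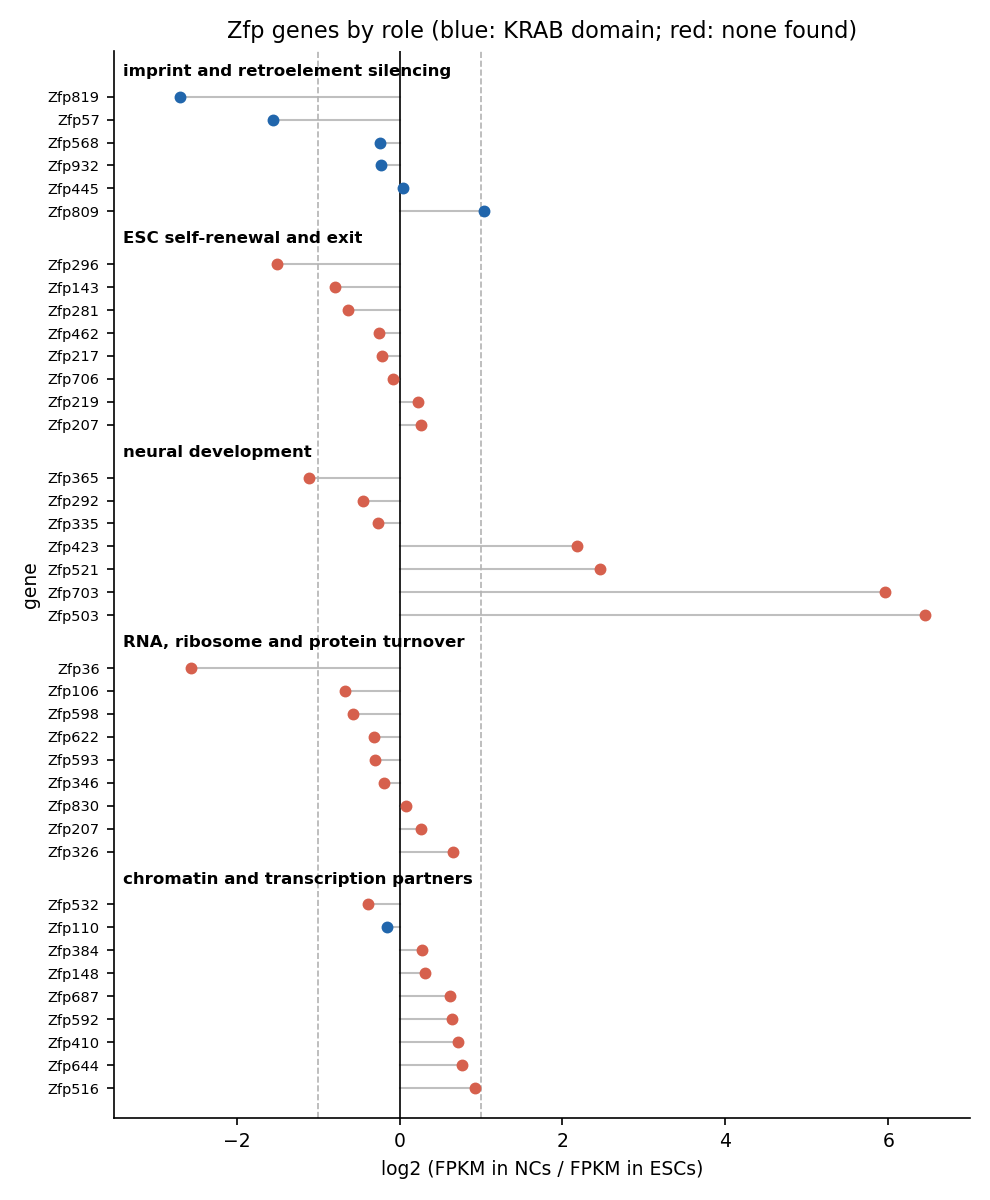
Log2 ratio of the NC to the ESC value of the Zfp genes in 5 role lists, 1 line per gene, sorted within each list; blue points have a KRAB domain, red points have none found, and dashed lines mark 2-fold. Zfp503 and Zfp703 reach 6.45 and 5.96, and most genes of the other lists lie within 2-fold.

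The proteins that KRAB zinc finger proteins recruit were mostly expressed at higher levels than the Zfp genes. Of 27 listed genes with a value, 1 (3.70%) was 2-fold higher and none was 2-fold lower, beside 5.75% and 8.86% of all names at 20 FPKM or more, 10 were higher in NCs and the median log2 ratio was -0.05, turned to 18 higher and 0.24 in TPM. Trim28, the corepressor that binds KRAB, was at 459 FPKM in ESCs and 300 in NCs (458.6 and 299.9 before rounding), 1.53-fold lower, and it had the lowest ratio of the list. Setdb1, the histone H3 lysine methyltransferase it recruits, was at 25.05 and 24.4 FPKM. Chd3, a remodeler of the NuRD complex, was the gene past 2-fold, at 3.82 and 8.10 FPKM. It and Mbd1 (5.23 and 8.06 FPKM) are not at 20 FPKM but at 5 to 10 FPKM, where 13.1% of all names were 2-fold higher. Other zinc finger names at 2 FPKM (Zbtb, Zscan, Zkscan, Znf and Zfp names with a letter) numbered 80, of which 14 (17.5%) were 2-fold higher and 5 (6.25%) 2-fold lower, with a median of 0.17; 8 of the 14 were Zscan names.

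Zfp genes lie in clusters in the mouse genome, made by local duplication. With the start of the next member within 500000 bases, 80 members formed 10 clusters of 5 or more, 59 of them KRAB genes. Within the clusters 8 members (10.0%) were 2-fold higher and 1 (1.25%) was 2-fold lower, against 29 (16.4%) and 12 (6.78%) of the 177 members outside. The shares of all names were 10.8% and 9.78%, so the share of clustered members 2-fold higher is at that of all names. These names were not matched in level to the clustered members. Clusters differed in their medians. Cluster C5, on chromosome 7 at chr7:4915217-5053723, had the highest median log2 ratio, 0.78, and holds Zfp579 (log2 ratio 1.18) and Zfp524 (-0.69), with no KRAB gene among its 5 members. Its median is the value of Zfp865. Zfp865 and Zfp524 share 14.3% and 45% of their words with other genes, so this median is uncertain. Cluster C4 (chr6:47877204-48623227) had a median of 0.62 and ran from Zfp282 (1.71) to Zfp775 (-0.15). All 5 members of C10 (chr9:20345136-20605409) were higher in NCs, from Zfp266 (0.18) to Zfp560 (2.59), and so were all 5 of C6 (chr7:24081924-24515682), from Zfp180 (0.27) to Zfp61 (0.86).

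In the 3 largest clusters of mostly KRAB genes no member was past 2-fold on the FPKM scale. The 14 KRAB genes of C2 (chr17:21008903-22867134) lay between Zfp946 (-0.82) and Zfp942 (0.54), and the 10 members of C3 (chr17:32765496-33631779) between Zfp870 (-0.59) and Zfp811 (0.99), which passes 2-fold after centring or in TPM. The 13 members of C7 (chr7:29768552-30169750) had the lowest median, -0.24 (0.06 in TPM), between Zfp383 (-0.61) and Zfp146 (0.79), which passes 2-fold in TPM. C8 (chr7:127233061-127885996) ran from Zfp688 (-0.22) to Zfp768 (2.15), and C9 (chr8:69209038-69791178) from Zfp930 (-0.67) to Zfp963 (0.90). In C1 (chr13:67405709-67792512) Zfp459 was the single gene of all clusters past 2-fold lower, while its 4 neighbours lay at -0.60 or above, up to Zfp87 (0.34). Of the 62 members on chromosome 7, 7 (11.3%) were 2-fold lower, near the 9.78% of all names: Zfp819, Zfp36, Zfp710, Zfp296, Zfp59, Zfp473 and Zfp667, all 7 of them outside the clusters.

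**Figure D5:**
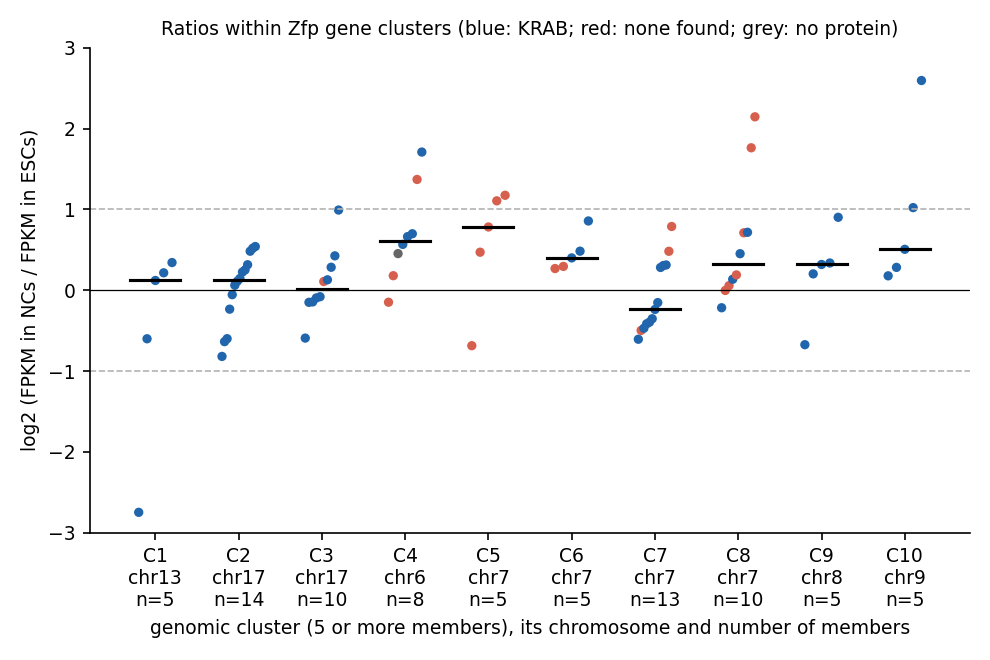
Log2 ratio of the NC to the ESC value of the 80 Zfp genes in 10 genomic clusters; points are genes (blue with a KRAB domain, red with none found, grey without a protein), bars are medians and dashed lines mark 2-fold. The medians run from -0.24 in C7 to 0.78 in C5 (0.06 and 1.08 in TPM), and the point far below the others is Zfp459 in C1.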

How the data were processed

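Total RNA of 3 ESC and 3 NC samples of line E14Tg2a was sequenced. The submitters' processing notes name TopHat2 2.0.8, Bowtie2 2.1.0, Cufflinks 2.0.2 and Cuffdiff, with build mm10. The deposited table holds 1 FPKM value per gene and condition, normalized by the authors over the 3 samples; the NC column heading reads FPK and was taken as FPKM. It also holds the authors' fold changes, test statistics, p and q values and significance calls, which were not used. A linear model over samples had been planned and could not be run on pooled values, so no test was made, and depth, intervals and sample spread are unknown.

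The ratio of NC to ESC FPKM was taken with no pseudocount, and genes past 2-fold were counted. For 2 repeated Zfp names the entry with the larger FPKM sum was kept. Members were matched to GENCODE M21 (GRCm38, the same as mm10), 252 by symbol and 5 by synonym. Coding sequences were translated, C2H2 fingers counted by pattern, and KRAB domains called with a profile (pyhmmer 0.12.3, E below 0.001) built from 77 windows of 42 residues. Sharing was the percentage of 50-base transcript words also in another gene. For each gene the RefSeq promoter nearest to its start was used. Protein pairs were aligned with Biopython 1.88.

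Named genes are the 10 largest differences in log2(FPKM + 1) each way, the 5 highest per condition, those nearest the 2 FPKM limit and equal values, extremes of clusters and finger number, and all members of the role lists; others were chosen after their values were seen. Members and lists were chosen with earlier results of these data known. The counting was tested on simulated data.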

Additional observations from a re-analysis of the deposited data

How the results depend on the processing

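No paired analysis was possible because the table holds 1 value per condition, so neither a replicate block nor leaving out a sample could be run. The 37 members 2-fold higher became 18 with a pseudocount of 1 FPKM, 24 at a 5 FPKM limit, 72 at 1.5-fold and 58 after rescaling to TPM. The 13 members 2-fold lower became 30 at 1.5-fold and 8 after TPM. The 15 higher KRAB genes became 4 with a pseudocount of 1 FPKM, 7 at a 5 FPKM limit, 23 at 1 FPKM, 28 with no filter, 33 at 1.5-fold, 24 after TPM and 5 among the 48 with both parts of the A-box of the domain. The 8 lower KRAB genes became 5 at 5 FPKM, 18 at 1.5-fold, 4 after TPM, 5 without shared sequence (at most 10% of words) and 2 with both parts. Rescaling to TPM, chosen after seeing the data as were all alternatives for lists, adds 0.29 to each log2 ratio (medians 0.53 for members, 0.25 for all names). It made the 2-fold higher share of the calls 87.9%, from 74.0%, and turned the direction of 34 members; 22.6% of members and 15.9% of all names were then 2-fold higher, 3.11% and 6.74% lower. Centring changed 3 calls and 3 directions. The higher count of the imprint and retroelement list went to 0 with a pseudocount of 1 FPKM, as did that of the corepressor partners and the lower count of the neural list, which was also 0 after TPM; the higher count of the chromatin list was 3 and that of other zinc finger names 23 after TPM. The cause of these changes was not tested. TPM also turned the direction of some medians. These were the medians of the imprint and retroelement list (-0.23 to 0.06), the ESC list (-0.23 to 0.06) and the corepressor partners (-0.05 to 0.24). So were those of cluster C7 (-0.24 to 0.06) and of the members at 20 FPKM or more (-0.10 to 0.19). The other counts stayed within 1.5 times. In the settings other than TPM the median of the members kept its direction and stayed within 0.1.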
